A study of Mus musculus with 14 samples.

Results

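Collagen chains are the gene products that assemble, in threes, into the triple helices of the collagen family. Every mouse protein-coding gene with a symbol made of Col, a number, the letter a and a number was taken from the deposited table, whatever its level. This gave 44 of the 37680 genes listed. Col26a1 was found under its older name Emid2 in the annotation. The RNA came from epithelium of the whole colon, lifted off the mesenchyme with EDTA, of adult mice on a C57/BL6 enriched background. The knockout mice carried Smad4 f/f alleles and the tamoxifen-inducible Villin-Cre ERT2 transgene, whose Villin promoter is active in intestinal epithelial cells, and are named Smad4 IEC-KO, or KO, here. The 14 libraries were 4 of WT and 4 of KO mice on water, and 3 of WT and 3 of KO mice given 2.5% dextran sulphate sodium (DSS), an agent that injures the colon epithelium, in drinking water for 3 days. The study asked what loss of Smad4, the partner of the TGF-β and BMP receptor-activated SMADs, does in the epithelium during DSS colitis.

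Collagens differ by how their triple helices pack. Fibrillar collagens (types I, II, III, V, XI, XXIV and XXVII) form the rope-like fibrils of connective tissue, and in the gut types I and III are made mainly by mesenchymal cells. Type IV builds the mesh of the basement membrane beneath the epithelium, type VI forms beaded filaments, and type VII forms anchoring fibrils. FACIT collagens sit on fibrils, transmembrane collagens such as type XVII span the cell membrane, and multiplexins (types XV and XVIII) lie in basement membrane zones. TGF-β signalling through SMAD3 and SMAD4 is a known inducer of type I collagen in fibroblasts.

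Depth and library differences frame all values. Total counts per library ran from 12882827 to 26087231, and the 44 chains together had 548 to 1379 counts per library, 0.00316% to 0.00633% of the total, so most chains were read near the floor. Levels are given as CPM, a gene's counts scaled to a common library size by TMM, as mean ± SD with n libraries. A count of 0 allows up to 0.115 to 0.233 CPM without TMM (3 counts of a library's total; intervals and this floor cover counting error only). Smad4 had 3593 counts in the library labelled KO water replicate 1, against 621 to 1137 in KO water replicates 2 to 4 and 1108 to 3591 in WT on water, so that library went against its label and calls on water are also given without it. Mitochondrial genes held 30.6% and 32.8% of counts in WT water replicates 3 and 4 and 21.4% in KO water replicate 4, and 4.05% to 8.23% in the other 11. All 8 colon epithelium markers listed (among them Epcam, Cdh1 and Vil1) were present in every library, each with 2555 counts or more, and 1 of them, Car1, a carbonic anhydrase of colonocytes, fell in KO on water (edgeR adjusted p = 0.035; 0.059 without that library).

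Of the 44 chains, 19 had 10 or more counts in 3 or more libraries and are called detected, 43.2%, beside 40.1% of all genes. Both multiplexins (Col15a1 and Col18a1) and the single type VII chain were detected, as were 4 of 11 fibrillar chains (Col1a1, Col1a2, Col3a1 and Col11a2), 3 of 6 type IV chains (Col4a1, Col4a2 and Col4a3), 2 of 6 type VI chains (Col6a1 and Col6a2), 4 of 9 FACIT chains (Col9a3, Col14a1, Col16a1 and Col20a1), 1 of 4 transmembrane chains (Col17a1) and 1 of 3 short chain network collagens (Col8a1). The last was Col28a1, a von Willebrand factor A domain collagen. Of the other 25 chains, Col11a1, Col22a1 and Col26a1 had no count in any library, 15 had at most 1 to 9 counts in a library, and 7 reached 10 or more in fewer than 3 libraries. Nearest the threshold, Col14a1 was just inside with 14, 16 and 11 counts in its 3 highest libraries, and Col25a1 just outside with 12, 12 and 9. The 25 undetected chains held 527 of 13050 collagen counts, 4.04%.

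**Figure D1:**
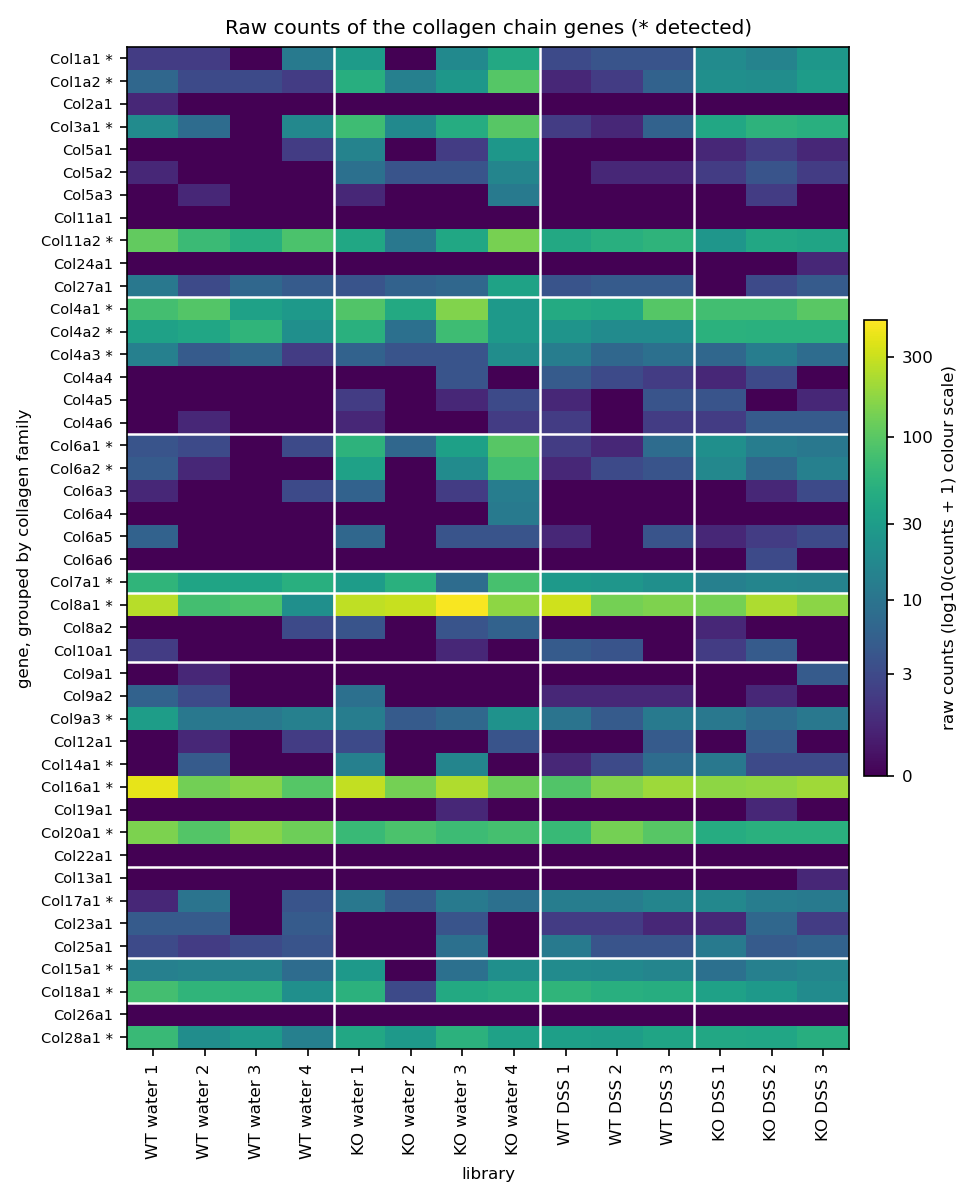
Raw counts of the 44 collagen chain genes (rows, by family, separated by white lines; * detected) in the 14 libraries (columns), on a log10(counts + 1) colour scale. Col8a1 and Col16a1 have 21 or more counts in all 14 libraries, and the rows of Col1a1, Col1a2, Col3a1, Col6a1 and Col6a2 are brighter in KO water replicates 1, 3 and 4 than in any WT library.

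Over all 14 libraries, types I and III were not among the 8 chains with the highest mean level per length, and Col11a2 was the sole fibrillar chain there. Per kb of exon, averaged over all 14 libraries, Col8a1 stood first at 1.88 CPM per kb, followed by Col16a1 at 1.36 and Col20a1 at 1.23. The order differed between groups and was turned in WT on water, where Col20a1 had 2.15, Col16a1 1.63 and Col8a1 1.08 CPM per kb. In KO on water Col6a1, outside the first 8 over all libraries, had 0.534 CPM per kb, just above Col4a1 at 0.526. Col3a1, also outside them, had 0.337 in KO on water and 0.289 CPM per kb in KO after DSS, above Col18a1 (0.242 and 0.193). In WT it had 0.0856 on water and 0.0155 CPM per kb after DSS. Over all libraries, Col4a1 (0.50), Col11a2 (0.452), Col28a1 (0.371), Col18a1 (0.304) and Col4a2 (0.299 CPM per kb) came next. These 8 chains held 76.9% of all collagen counts, and they were also the first 8, in the same order, when the longest coding transcript replaced the union of exons. Col3a1 (0.186), Col1a1 (0.101) and Col1a2 (0.0823 CPM per kb) ranked 11, 14 and 16. The rank of Col1a2 rests on the length used, since its annotated exons add up to 12145 bases and its longest coding transcript to 5347, with which it ranked 13. In the order of levels, neighbours such as Col16a1 and Col20a1, or Col18a1 and Col4a2, had overlapping ranges over libraries.

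**Figure D2:**
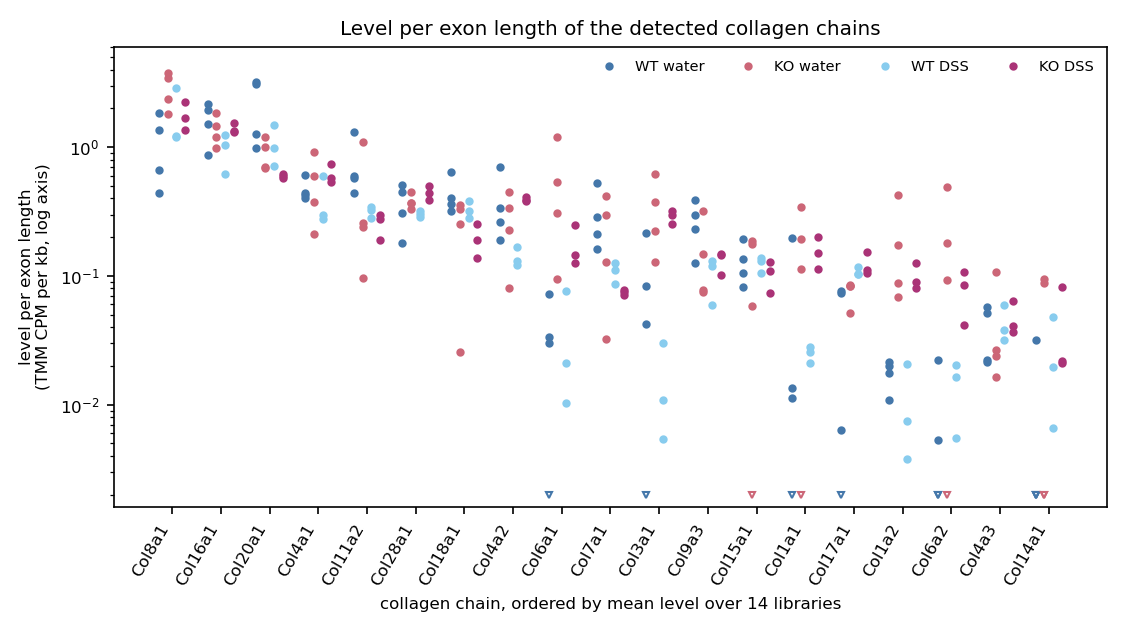
Level per exon length (TMM CPM per kb, log axis) of the 19 detected chains in each library, coloured by group and ordered by the mean over 14 libraries; open triangles at the lower edge mark libraries with 0 counts. Col8a1 leads with a mean of 1.88 CPM per kb, and the lower 11 chains hold all the 0 values.

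The 3 chains with the highest log2 fold change of KO over WT on water were of types VI and I. Col1a2 encodes the second chain of type I collagen (ENSMUSG00000029661; chromosome 6 of mm9, 4454814 to 4491543). It had 7, 3, 3 and 2 raw counts in WT water replicates 1 to 4 and 48, 14, 26 and 96 in KO, and the groups did not overlap. The means were 0.212 ± 0.0562 CPM (n = 4) and 2.29 ± 1.97 CPM (n = 4), a log2 fold change of 3.40 ± 0.66 (SE; edgeR quasi-likelihood test, adjusted p = 0.021). KO water replicate 4 alone held more counts than the other 3 KO libraries together, and the spread within KO was wide.

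Col6a1 and Col6a2 encode the paired chains that join a further chain in type VI filaments, and both lie on chromosome 10 of mm9 (76171537 to 76188913 and 76058507 to 76086375). Col6a1 had 4, 3, 0 and 3 counts in WT on water and 54, 7, 33 and 98 in KO, again without overlap in CPM, with a log2 fold change of 3.98 ± 0.85 (SE; edgeR adjusted p = 0.024). Col6a2 had 5, 1, 0 and 0 counts in WT and 34, 0, 19 and 76 in KO, where replicate 2 overlapped WT. Its log2 fold change was 4.27 ± 1.12 (SE; edgeR adjusted p = 0.036). The other type VI chains stayed undetected, with at most 13 counts of Col6a3 and 12 of Col6a4 in a library, both in KO water replicate 4.

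Col3a1, the sole chain of type III collagen (chromosome 1 of mm9, 45368383 to 45406551), and Col1a1, the major type I chain (chromosome 11, 94797538 to 94814356), did not pass on water. Col3a1 had 19, 8, 0 and 17 counts in WT and 71, 18, 46 and 98 in KO (log2 fold change 2.05 ± 0.73 SE; edgeR adjusted p = 0.078). Col1a1 had 2, 2, 0 and 12 counts in WT and 29, 0, 18 and 42 in KO (log2 fold change 1.82 ± 1.06 SE; edgeR adjusted p = 0.26). The single WT library with 12 counts and the KO library with 0 made the Col1a1 groups overlap.

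Across the 19 chains tested on water, 4 rose in KO (Col1a2, Col6a1, Col6a2 and Col8a1) and 0 fell. Of the 15127 genes tested, 8.44% changed in either direction and 4.83% rose. Col1a2, Col6a1 and Col6a2 reached the count needed for testing in KO libraries only. No WT library held more than 7, 8 and 5 counts of them, respectively. These chains were thus tested because KO was high, so the 4 against 0 rests partly on the filter. The median log2 fold change over the 19 chains was 0.15, beside -0.01 over all genes, with 11 chains higher and 8 lower. Every KO library exceeded every WT library for 2 of 19 chains, Col1a2 and Col6a1, beside 5.18% of all genes. Without the library labelled KO water replicate 1, Col1a2 (edgeR adjusted p = 0.018), Col6a1 (0.026) and Col6a2 (0.044) passed and Col8a1 (0.054) did not, while 1148 of all genes passed. No chain passed without WT water replicate 4 or without KO water replicate 3, when 4 and 5 of all genes passed. Col1a2 and Col6a1 alone passed without WT water replicate 3 (531 of all genes passed) or KO water replicate 2 (16). The same 2 chains alone passed without WT DSS replicate 3 (611 of all genes), KO DSS replicate 2 (579) or KO DSS replicate 3 (432). Without KO water replicate 4, 6 chains passed (the 4 above with Col11a2 and Col20a1 lower), beside 27.2% of all genes. None passed in the model of the 8 water libraries alone (1 gene of all), where the edgeR adjusted p of Col1a2 was 0.15. DESeq2 with 14 libraries called 5 (Col1a2, Col3a1, Col6a1 and Col8a1 higher, Col20a1 lower), beside 17.6% of all genes, and left the adjusted p of Col6a2 blank. DESeq2 on the 8 water libraries alone called 2, Col8a1 higher and Col20a1 lower, beside 5.08% of all genes. That fit left the adjusted p of Col1a1, Col1a2, Col3a1, Col6a1 and Col6a2 blank, among other chains, and so made no call on them.

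After DSS the same 5 chains were again low in WT and higher in KO. Col3a1 had 2, 1 and 6 counts in WT DSS replicates 1 to 3 and 41, 54 and 49 in KO DSS. Col1a2 had 1, 2 and 6 against 21, 20 and 30, and Col1a1 had 3, 4 and 4 against 19, 15 and 26. For each of these the 3 KO libraries lay above the 3 WT libraries. Col6a1 (2, 1 and 8 counts in WT; 21, 13 and 11 in KO) and Col6a2 (1, 3 and 4; 17, 7 and 14) were also without overlap in CPM.

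With all 14 libraries in the model, 0 of 19 chains passed for KO against WT after DSS, beside 0.0132% of all genes, and 4 chains had an unadjusted p under 0.05 (Col1a2, Col3a1, Col4a2 and Col6a1), beside 4.43% of all genes. DESeq2 with the same libraries called 2, Col1a2 (adjusted p = 0.047) and Col3a1 (adjusted p = 0.0025), beside 0.337% of all genes. The log2 fold changes were 4.14 ± 0.96 for Col3a1 (SE; edgeR adjusted p = 0.36) and 3.13 ± 0.77 for Col1a2 (SE; edgeR adjusted p = 0.41). In the model of the 6 DSS libraries alone, 3 chains passed, Col3a1 (edgeR adjusted p = 0.0080), Col1a1 and Col1a2 (0.046 each), beside 0.747% of all genes. In the same model Krt20, a keratin of mature colonocytes and 1 of the 8 epithelial markers, fell in KO (log2 fold change -0.85 ± 0.14 SE; edgeR adjusted p = 0.032), and its part in the result was not tested. DESeq2 on these 6 libraries called 4, the same 3 and Col4a2, beside 3.3% of all genes. Every KO library exceeded every WT library for 8 of 19 chains, beside 10.4% of all genes, and lay below for 3 (Col7a1, Col18a1 and Col20a1), beside 11.4%. The 8 were the 5 chains above with Col4a2, Col16a1 and Col28a1, and the median log2 fold change of the 19 chains was 0.52. With only the 5 DSS libraries whose names share a prefix, Col3a1 alone passed (log2 fold change 5.03 ± 0.53 SE; edgeR adjusted p = 0.011), beside 0.278% of all genes.

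**Figure D3:**
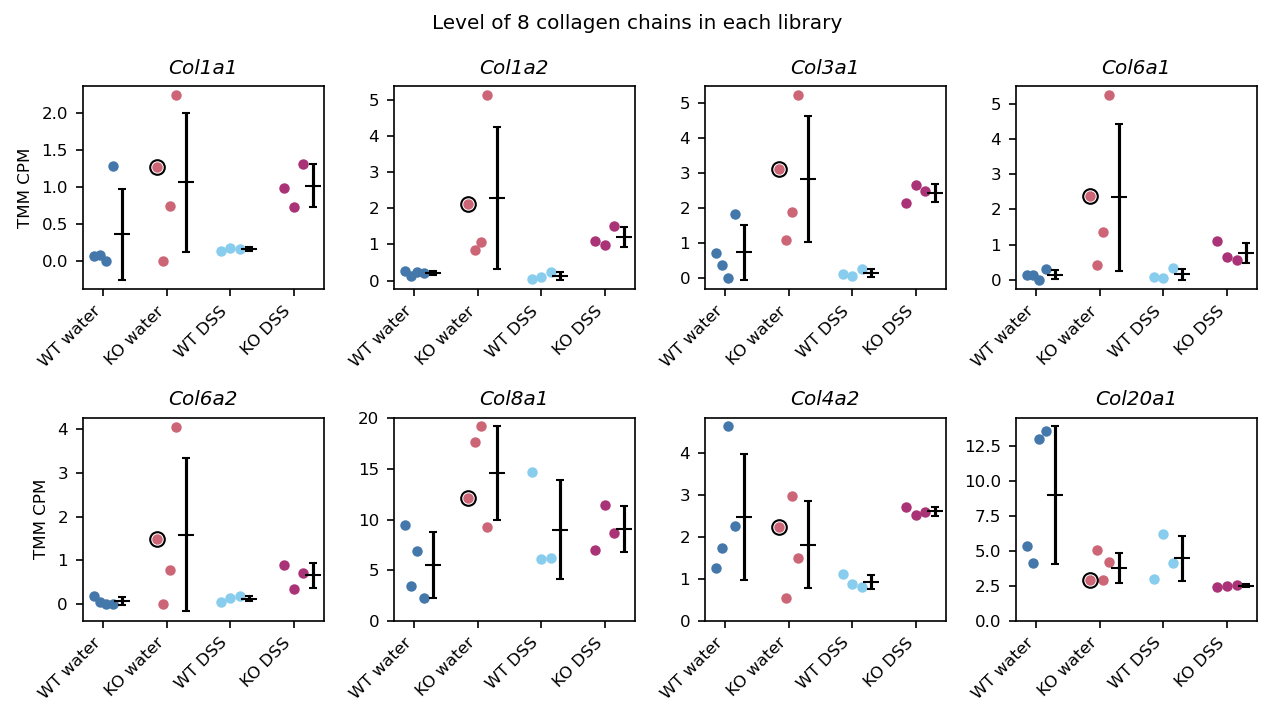
TMM CPM of 8 collagen chains in each library (points), with mean ± SD per group (black; n = 4 on water, n = 3 after DSS); a black ring marks the library labelled KO water replicate 1. For Col1a2 the 4 KO water libraries (14 to 96 counts) lie above the 4 WT water libraries (2 to 7 counts), and for Col20a1 WT water replicates 3 and 4 stand apart at 13 and 13.6 CPM.

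Some markers of cells other than epithelium, among them Dcn, Msln and Upk3b, were highest in KO water replicate 4, as were these 5 chains. Other listed markers were not, and Cspg4 fell in KO on water. In bulk RNA, more cells of a type and more RNA per cell cannot be told apart. Dcn, a proteoglycan of fibroblasts that binds fibrils, had 12, 11, 8 and 5 counts in WT on water, 97, 18, 89 and 216 in KO on water, 0, 10 and 29 in WT after DSS and 167, 77 and 28 in KO after DSS. It rose in KO on water (log2 fold change 3.29 ± 0.84 SE; edgeR adjusted p = 0.034) and did not pass after DSS (3.02 ± 0.93 SE; edgeR adjusted p = 0.70). With all libraries Dcn was the only 1 of the 4 fibroblast list genes tested that passed on water. Without the library labelled KO water replicate 1, Fbln1 also rose in KO. Pdgfra and Pdpn had at most 10 counts in a library, while Lum had at most 1, Dpt at most 3 and Mfap5 at most 3. The summed level of the 9 fibroblast genes was 158 to 312 CPM in WT and 152 to 253 CPM in KO on water, and 206 to 236 and 209 to 235 CPM after DSS, most of it from Gsn, which had 1325 counts or more in every library.

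Of the mesothelium and fat list, 2 genes were also highest in KO water replicate 4. Msln, a surface protein of mesothelial cells that line the outer gut wall, had 15, 10, 0 and 8 counts in WT and 27, 0, 27 and 147 in KO on water, then 2, 7 and 3 in WT and 35, 12 and 26 in KO after DSS. Upk3b, also made by mesothelial cells, had 3, 4, 0 and 2 against 17, 11, 20 and 104 on water, and 0, 0 and 14 against 19, 24 and 8 after DSS. Upk3b rose in KO on water (log2 fold change 3.89 ± 1.12 SE; edgeR adjusted p = 0.045) and Msln did not pass (edgeR adjusted p = 0.13). Of the WT libraries only WT DSS replicate 3 reached 10 counts of Upk3b, so Upk3b was tested because KO was high. The 4 list genes summed to 0 to 1.07 CPM in WT and 0.655 to 13.4 CPM in KO on water, and to 0.0919 to 0.715 and 1.72 to 2.82 CPM after DSS, with the fat markers Plin1 at 0 and Adipoq at 4 counts or fewer. Wt1, a mesothelial transcription factor looked up after these values were seen, had at most 3 counts in WT on water and 9, 0, 4 and 29 in KO. KO water replicate 4 was highest, and KO water replicate 2 lowest of the KO libraries, for the 5 chains summed (410 and 39 counts), Dcn (216 and 18) and the sum of Msln and Upk3b (251 and 11). In the model of the 8 water libraries alone neither Dcn (edgeR adjusted p = 0.15) nor Upk3b (0.16) passed, and without the library labelled KO water replicate 1 both did (0.040 and 0.044). After DSS the order of the KO libraries differed, since replicate 3 was highest for the 5 chains (130 counts) and lowest for Dcn (28) and for Msln and Upk3b together (34). The part of these cells in the collagen values was not tested.

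Lists of other cell types were more mixed. The smooth muscle and myofibroblast list summed to 13.1 to 22.3 CPM in WT and 11.9 to 20.9 CPM in KO on water, most of it from Tagln, and 0 of its 4 genes tested passed in edgeR (0 at an unadjusted p under 0.05). Single genes of that list were nevertheless highest in KO water replicate 4, which had 36 counts of Myh11 and 24 of Cnn1, against 16 and 4 or fewer in the WT water libraries. Endothelial genes Cldn5, Emcn and Tie1 were at 0 in all 14 libraries, Kdr and Cdh5 had at most 3 and 5 counts, and the list of 8 summed to 5.10 to 12.5 CPM in WT and 4.44 to 7.16 CPM in KO on water. Of the pericyte list, Cspg4 fell in KO on water (log2 fold change -3.26 ± 0.84 SE; edgeR adjusted p = 0.035), as it did without the library labelled KO water replicate 1 (0.044), and not with the 8 water libraries alone (0.16). Of the genes tested there, 0 of 7 hematopoietic, 0 of 3 endothelial, 0 of 2 lymphatic, 0 of 1 enteric glia and 0 of 1 squamous genes passed in edgeR, and 0 had an unadjusted p under 0.05.

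**Figure D4:**
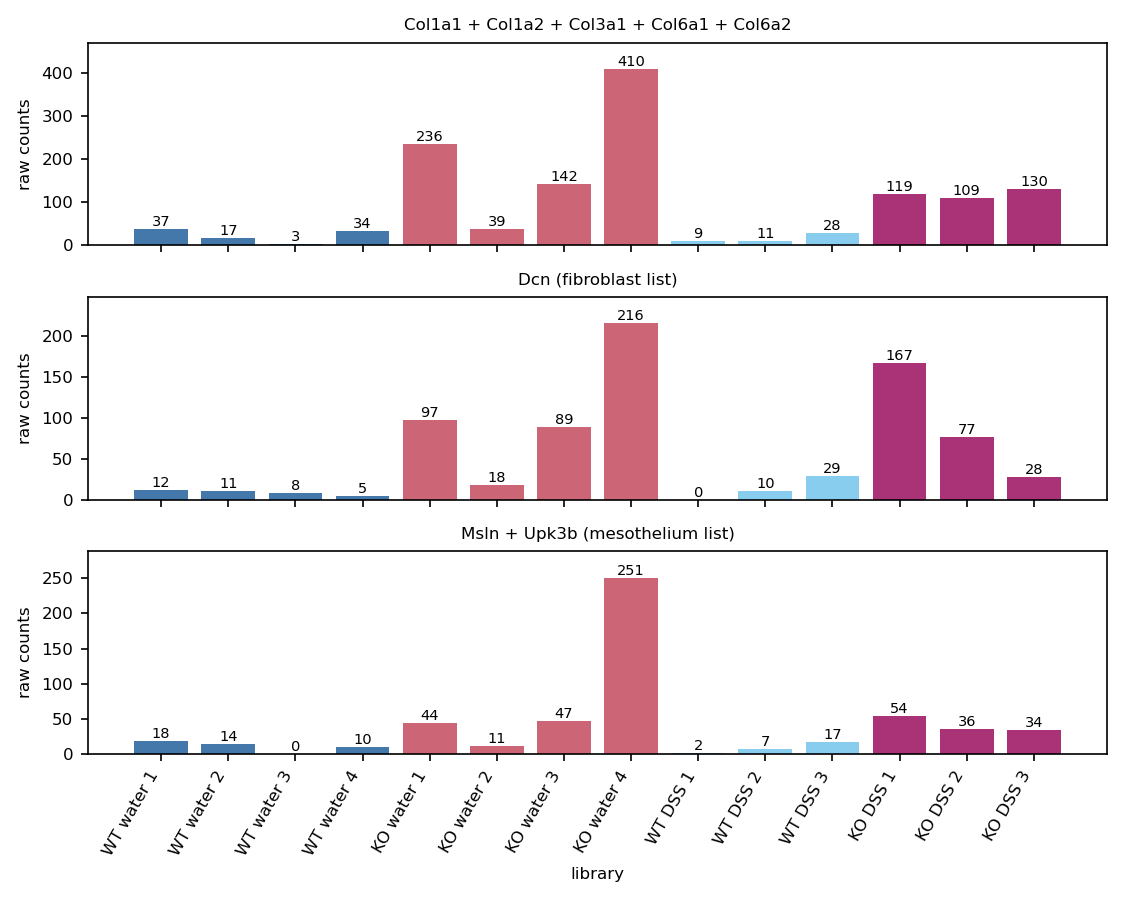
Raw counts in each library of the sum of Col1a1, Col1a2, Col3a1, Col6a1 and Col6a2 (upper), of Dcn (middle) and of Msln and Upk3b together (lower), bars coloured by group and starting at 0. In all 3 panels KO water replicate 4 has the highest bar (410, 216 and 251 counts). The markers shown were picked from longer lists, whose other genes are not shown.

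The start regions of these chains are shown because Smad4, the deleted gene, encodes a factor that binds DNA at the letters CAGAC or their complement GTCTG. Sequences are RefSeq promoters of build GRCm38.p6, 250 bases before to 50 after the start, 5′ to 3′ on the gene's strand, with each CAGAC or GTCTG in capitals. The table had entries for 35 of the 44 symbols. Col1a1 has no entry. Col1a2 lies at chr6:4505368-4505667 (+), Col3a1 at chr1:45311288-45311587 (+), Col6a1 at chr10:76725995-76726294 (-), Col6a2 at chr10:76623355-76623654 (-; the first of 2 entries) and Col8a1 at chr16:57754688-57754987 (-).
Col1a2: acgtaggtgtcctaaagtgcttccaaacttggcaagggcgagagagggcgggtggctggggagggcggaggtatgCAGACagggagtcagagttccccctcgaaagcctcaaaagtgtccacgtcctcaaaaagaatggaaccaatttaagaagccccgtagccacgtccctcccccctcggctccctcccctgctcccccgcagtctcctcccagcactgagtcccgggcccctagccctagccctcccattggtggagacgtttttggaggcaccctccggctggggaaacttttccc
Col3a1: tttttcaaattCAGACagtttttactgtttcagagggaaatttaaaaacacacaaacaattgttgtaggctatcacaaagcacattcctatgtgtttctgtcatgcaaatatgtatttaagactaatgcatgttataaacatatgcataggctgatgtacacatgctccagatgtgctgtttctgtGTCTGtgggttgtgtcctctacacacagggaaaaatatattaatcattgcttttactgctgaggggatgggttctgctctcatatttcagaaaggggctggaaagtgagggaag
Col6a1: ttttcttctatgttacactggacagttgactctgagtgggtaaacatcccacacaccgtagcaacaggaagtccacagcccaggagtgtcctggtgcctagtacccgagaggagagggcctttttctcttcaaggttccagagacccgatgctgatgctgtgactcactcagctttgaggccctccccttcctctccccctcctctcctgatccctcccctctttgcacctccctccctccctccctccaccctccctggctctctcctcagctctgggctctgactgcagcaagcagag
Col6a2: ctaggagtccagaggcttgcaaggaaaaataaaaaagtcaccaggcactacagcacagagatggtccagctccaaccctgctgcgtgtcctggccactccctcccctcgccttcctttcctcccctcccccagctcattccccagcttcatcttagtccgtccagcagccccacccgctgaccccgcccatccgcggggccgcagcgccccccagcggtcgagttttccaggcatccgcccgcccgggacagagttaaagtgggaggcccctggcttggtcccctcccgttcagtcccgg
Col8a1: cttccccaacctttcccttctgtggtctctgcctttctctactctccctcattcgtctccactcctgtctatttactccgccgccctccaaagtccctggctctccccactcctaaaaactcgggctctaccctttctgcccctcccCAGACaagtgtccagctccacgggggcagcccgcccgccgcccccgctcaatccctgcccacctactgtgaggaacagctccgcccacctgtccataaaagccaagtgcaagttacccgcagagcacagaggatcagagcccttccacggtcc
Col3a1 held 2 matches, Col1a2 and Col8a1 1 each, and the windows of Col6a1 and Col6a2 held 0. The letters were found in 52.6% of 38 collagen windows and in 49.6% of 32851 windows of the same length. The GC-rich letters GGGCGG or their complement, which Sp1-type factors bind, were found in 60.5% of the collagen windows and 35.7% of all. A match describes the letters and shows no binding.

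Col8a1 behaved apart from the fibrillar chains. It encodes a short chain network collagen best known from vessel walls and the cornea (ENSMUSG00000068196; chromosome 16 of mm9, 57624371 to 57754850), and it had more counts than any other chain. It had 256, 77, 85 and 21 raw counts in WT on water, 276, 296, 468 and 174 in KO on water, 319, 134 and 148 in WT after DSS and 134, 233 and 170 in KO after DSS. On water its mean was 5.51 ± 3.30 CPM (n = 4) in WT and 14.6 ± 4.65 CPM (n = 4) in KO, where WT replicate 1 overlapped KO replicate 4. The log2 fold change was 1.38 ± 0.40 (SE; edgeR adjusted p = 0.047), and the call held in 3 of 14 fits that each left out 1 library (edgeR adjusted p from 0.013 to 0.14). After DSS the means were 9.0 ± 4.9 CPM (n = 3) and 9.03 ± 2.26 CPM (n = 3), with a log2 fold change of 0.01 and an approximate 95% interval from -0.88 to 0.90. The difference between these genotype contrasts, -1.37 ± 0.61 on the log2 scale (SE), did not pass (edgeR adjusted p = 0.64). Unlike the 5 chains above, its highest KO library on water was replicate 3, not replicate 4.

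Type IV chains form the basement membrane that epithelial cells rest on, and Col4a1 and Col4a2 assemble into its common trimer. Their genes lie head to head on chromosome 8 of mm9, with Col4a1 from 11198423 to 11312826 on the minus strand and Col4a2 from 11312805 to 11449287 on the plus strand, so that their first 22 bases overlap. The shared start is shown in the RefSeq window of Col4a2 (GRCm38.p6, chr8:11312555-11312854, + strand), with the 22 bases between both starts in capitals.
Col4a2: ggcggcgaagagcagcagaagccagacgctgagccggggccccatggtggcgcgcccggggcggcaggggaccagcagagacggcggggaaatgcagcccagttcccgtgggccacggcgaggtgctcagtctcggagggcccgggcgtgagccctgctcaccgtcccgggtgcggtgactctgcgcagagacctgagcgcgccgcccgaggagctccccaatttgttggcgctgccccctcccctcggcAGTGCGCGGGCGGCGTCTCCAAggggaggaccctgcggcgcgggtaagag
Col4a1 had 78, 93, 34 and 28 raw counts in WT on water, 92, 43, 153 and 27 in KO on water, 44, 41 and 96 in WT after DSS and 75, 75 and 100 in KO after DSS, and all groups overlapped their neighbours. On water its log2 fold change was 0.17 ± 0.39 (SE; edgeR adjusted p = 0.80), with an approximate 95% interval from -0.60 to 0.94.

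Col4a2 had 34, 39, 57 and 21 counts in WT on water, 51, 9, 72 and 28 in KO on water, 24, 19 and 19 in WT after DSS and 52, 51 and 51 in KO after DSS. The 3 KO DSS libraries were close together at 2.60 ± 0.106 CPM (n = 3), above the WT DSS libraries at 0.923 ± 0.159 CPM (n = 3). Its log2 fold change after DSS was 1.49 ± 0.56 (SE; edgeR adjusted p = 0.92 with 14 libraries) and 1.5 ± 0.28 with the 6 DSS libraries alone (SE; edgeR adjusted p = 0.052). On water the contrast had the other sign, -0.41 ± 0.48 (SE; edgeR adjusted p = 0.60), and the difference of the DSS responses was 1.90 ± 0.74 (SE; edgeR adjusted p = 0.64). The share of Col4a1 in the summed reads of both chains was 60.7% in WT on water (95% exact binomial interval 55.6% to 65.6%, counting error only), 66.3% in KO on water (61.9% to 70.6%), 74.5% in WT after DSS (68.5% to 79.8%) and 61.9% in KO after DSS (56.9% to 66.6%). These intervals pool libraries, and the share was not tested between groups.

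For type I, the share of Col1a1 in the reads of Col1a1 and Col1a2 together was 32.6% in KO on water (95% exact binomial interval 27.1% to 38.5%) and 45.8% in KO after DSS (37.1% to 54.7%). In WT it rested on 16 Col1a1 reads on water and 11 after DSS. Per length of the longest coding transcript, Col1a1 reads were 0.569 of Col1a2 reads over all libraries. By group this ratio was 0.962 in WT and 0.436 in KO on water, and 1.10 in WT and 0.762 in KO after DSS. Per kb of exon the order was turned, with Col1a1 at 0.101 and Col1a2 at 0.0823 CPM per kb over all libraries. The type I trimer holds more Col1a1 than Col1a2 chains, and reads whose order turns with the length used cannot be set against that. For type VI the ratio of Col6a1 to Col6a2 per length was 1.62. These ratios are of reads, and counts shared with overlapping genes (109 exonic bases of Col1a1 with Gm17329 on the other strand) could move them, as the strand setting of the counting was not given in the sources used here.

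Of the FACIT chains, which bind to the surface of fibrils, Col20a1 came nearest to a genotype call. Col20a1 (chromosome 2 of mm9, 180721240 to 180752245) had 144, 94, 160 and 127 counts in WT and 67, 85, 70 and 79 in KO on water, then 65, 136 and 99 in WT and 46, 51 and 51 in KO after DSS. In CPM the WT water libraries split into 5.33 and 4.17 for replicates 1 and 2, and 13 and 13.6 for replicates 3 and 4, the libraries with 30.6% and 32.8% mitochondrial counts. KO on water was at 3.78 ± 1.06 CPM (n = 4), and the log2 fold change of -1.24 ± 0.37 (SE) narrowly missed the threshold (edgeR adjusted p = 0.051). DESeq2 with all libraries called it lower (adjusted p = 0.012). Leaving out 1 library at a time gave an edgeR adjusted p of 0.031 to 0.16, and the part of the mitochondrial share in it was not tested.

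Col16a1, a FACIT collagen of connective tissues (chromosome 4 of mm9, 129725084 to 129776527), was second in counts and in level per exon length, and neither genotype comparison with 14 libraries called it in edgeR. It had 398, 133, 160 and 96 counts in WT and 283, 137, 239 and 124 in KO on water, and 91, 155 and 201 in WT and 172, 181 and 204 in KO after DSS. Its log2 fold change was -0.24 ± 0.28 on water (SE; edgeR adjusted p = 0.60) and 0.52 ± 0.33 after DSS (SE; edgeR adjusted p = 0.999). Of the other FACIT chains detected, Col14a1 had 0 to 16 counts and Col9a3 5 to 31, and neither passed in any of the 5 edgeR comparisons with 14 libraries. Of the exons of Col9a3, 6.07% overlap Tcfl5 on the other strand.

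Col11a2, a fibrillar chain known from cartilage (chromosome 17 of mm9, 34176382 to 34203630), did not follow types I and III. It had 111, 68, 48 and 84 counts in WT and 40, 11, 40 and 140 in KO on water, and 42, 49 and 56 in WT and 25, 41 and 37 in KO after DSS. WT water replicate 4 and KO water replicate 4 had the highest levels (8.98 and 7.48 CPM), and the other 12 libraries had 0.655 to 4.11 CPM. Both share a name prefix and had mitochondrial shares of 32.8% and 21.4%. WT water replicate 3, with a mitochondrial share of 30.6%, had 3.91 CPM. The part of prefix or mitochondrial share in Col11a2 was not tested. The Col11a2 contrast on water was -0.78 ± 0.55 (log2, SE; edgeR adjusted p = 0.37), and without KO water replicate 4 it was -1.83 and passed (edgeR adjusted p = 0.0078).

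Of the remaining chains, none passed in the genotype comparisons with 14 libraries in edgeR. Col18a1, a multiplexin whose end fragment is endostatin (chromosome 10 of mm9, 76514923 to 76629293), had 77, 57, 55 and 21 counts in WT and 53, 3, 43 and 47 in KO on water, and 58, 49 and 47 in WT and 34, 27 and 19 in KO after DSS. The 3 KO DSS libraries were below the 3 WT DSS libraries, with a log2 fold change of -0.76 ± 0.59 (SE; edgeR adjusted p = 0.999 with 14 libraries and 0.30 with the 6 DSS libraries alone). Col28a1 (chromosome 6 of mm9, 7947808 to 8142617) had 67, 20, 27 and 14 counts in WT and 41, 27, 53 and 34 in KO on water, and 32, 31 and 37 in WT and 41, 39 and 48 in KO after DSS. Its log2 fold change was 0.07 ± 0.35 on water (SE; edgeR adjusted p = 0.91) and 0.55 ± 0.40 after DSS (SE). Col7a1, the anchoring fibril chain, had 8 to 80 counts and Col17a1, the hemidesmosomal collagen, 0 to 17. The multiplexin Col15a1 had 0 to 27 counts and Col4a3, a type IV chain best known from the kidney, 2 to 20. The squamous markers Krt5, Trp63 and Ivl were at 0 in all 14 libraries.

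**Figure D5:**
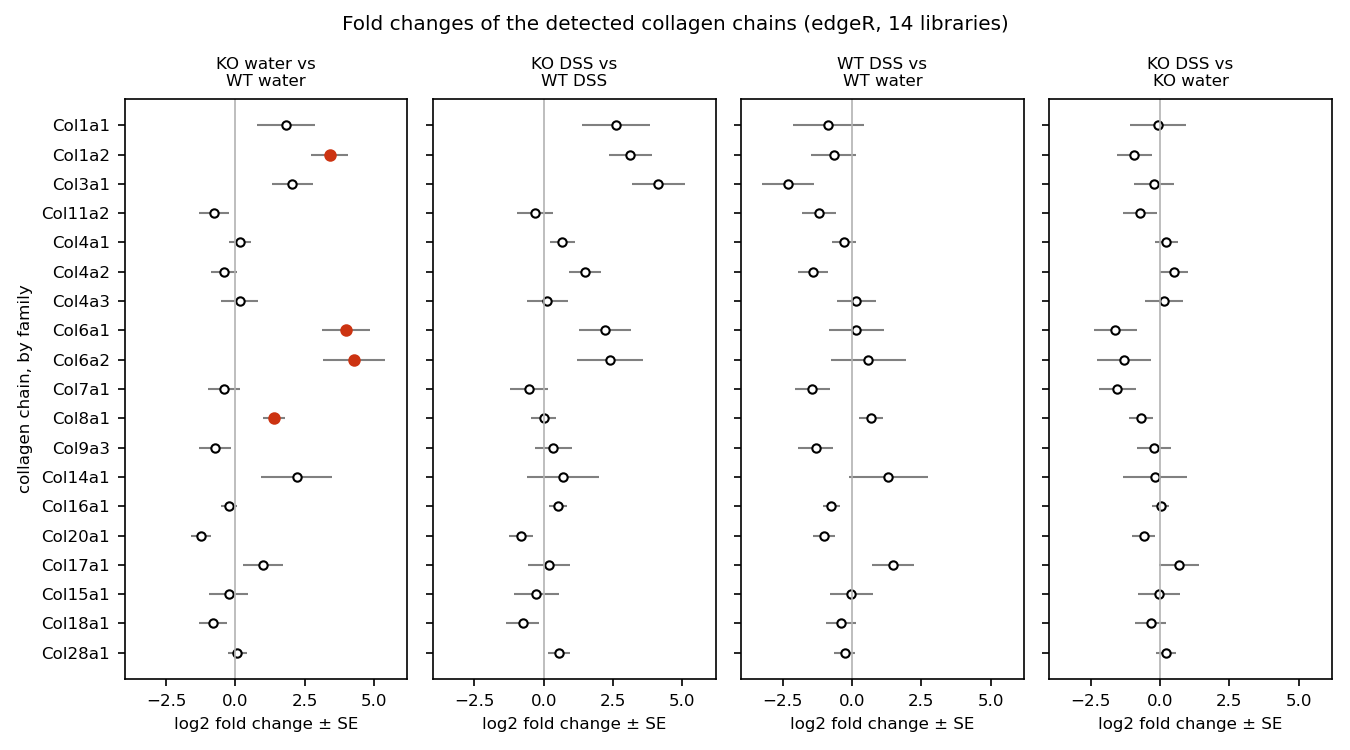
Log2 fold change ± SE (edgeR, 14 libraries; x axis) of the 19 detected chains (y axis, by family) in 4 comparisons; filled red points passed an adjusted p of 0.05. Only Col1a2, Col6a1, Col6a2 and Col8a1 for KO against WT on water are filled.

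DSS itself changed no chain within either genotype at the threshold. In WT, 0 of 19 chains and 0% of all genes passed in edgeR, while 5 chains had an unadjusted p under 0.05, beside 21% of all genes. These were Col3a1 (log2 fold change -2.31 ± 0.95), Col7a1 (-1.42 ± 0.64), Col4a2 (-1.39 ± 0.54), Col20a1 (-1.0 ± 0.40) and Col16a1 (-0.74 ± 0.31; each ± SE), all lower after DSS, with an edgeR adjusted p of 0.17 to 0.22. The median over the 19 chains was -0.40, beside -0.01 over all genes. DESeq2 with all libraries called 0 chains, beside 5.63% of all genes, and DESeq2 on the 7 WT libraries alone called Col7a1 and Col11a2 lower (adjusted p = 0.031 and 0.036), beside 11.7% of all genes.

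In KO, 0 of 19 chains passed for DSS against water, beside 0.0661% of all genes, and 1, Col7a1 (log2 fold change -1.54 ± 0.66 SE; edgeR adjusted p = 0.56), had an unadjusted p under 0.05, beside 8.4% of all genes. Here DESeq2 also called 0. The KO libraries on water and after DSS share no name prefix, so DSS and prefix cannot be told apart in KO. For the difference of the DSS responses between genotypes, 0 chains passed in edgeR and in DESeq2, beside 0.00661% of all genes in edgeR, and 2 (Col4a2 and Col8a1) had an unadjusted p under 0.05, beside 7.5% of all genes.

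Summed over all 44 genes, collagen reads came to 49.3 ± 12.8 CPM in WT and 57.3 ± 11.8 CPM in KO on water (n = 4 each), and to 35.0 ± 2.09 CPM in WT and 44.4 ± 2.50 CPM in KO after DSS (n = 3 each). The ranges overlapped on water, and after DSS the 3 KO libraries (41.5 to 46.2 CPM) lay above the 3 WT libraries (32.7 to 36.8 CPM). The make-up of the sum also differed between libraries, and was not tested. FACIT chains held 35.5% to 46.8% of collagen counts in the WT water libraries and 17.1% to 31.3% in the KO water libraries. Type VI chains held 0% to 1.18% in WT and 0.966% to 15.0% in KO on water, and fibrillar chains 8.19% to 22.3% and 7.31% to 34.5%. After DSS fibrillar chains held 6.49% to 9.26% in WT and 13.7% to 16.6% in KO. The 4 KO libraries on water were far apart, and KO water replicate 4 was the highest library for 6 of the 19 detected chains (Col1a1, Col1a2, Col3a1, Col4a3, Col6a1 and Col6a2).

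Genes that serve collagen were read from lists. Of 14 tested genes for prolyl and lysyl modification and folding, Serpinh1, the collagen chaperone HSP47, rose in KO on water (log2 fold change 3.46 ± 0.83 SE; edgeR adjusted p = 0.031) and 0 fell, beside 4.83% of all genes that rose, with a list median of -0.01. Its counts were 4, 3, 0 and 0 in WT and 14, 12, 12 and 44 in KO on water, and 1, 2 and 5 in WT and 12, 7 and 5 in KO after DSS. Only KO libraries reached the count needed for testing, so Serpinh1 was tested because KO was high. Most of the list was far more abundant and steady, such as P4hb, a subunit of prolyl 4-hydroxylase, with 6846 to 23526 counts. Of 5 tested genes for procollagen processing and crosslinking 0 passed on water in edgeR, with 1 (Adamts3) at an unadjusted p under 0.05, and Lox, the lysyl oxidase, had at most 7 counts in a library.

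Of 5 tested collagen receptors, 2 integrin subunits rose in KO on water and 0 fell, beside 4.83% of all genes that rose. Itga2, the collagen-binding alpha subunit of epithelial cells, had 165, 108, 53 and 18 counts in WT and 284, 368, 691 and 109 in KO (log2 fold change 1.96 ± 0.39 SE; edgeR adjusted p = 0.022). Itgb1, its beta partner, rose by a log2 fold change of 0.61 ± 0.18 (SE; edgeR adjusted p = 0.049). Among partners of Col17a1 in the hemidesmosome, Itga6, an integrin alpha subunit, rose in KO on water (log2 fold change 0.56 ± 0.16 SE; edgeR adjusted p = 0.044), and 0 fell. In the model of the 8 water libraries alone none of these passed (edgeR adjusted p = 0.16 for Serpinh1, 0.15 for Itga2, 0.18 for Itgb1 and 0.17 for Itga6). Without the library labelled KO water replicate 1, Serpinh1 (0.029) and Itga2 (0.015) passed in edgeR and Itgb1 (0.066) and Itga6 (0.065) did not. In that fit P3h4, of the modification and folding list, was called lower in KO. Of these 4 lists none had a gene called after DSS with 14 libraries, and with the 6 DSS libraries alone Itga2 passed (log2 fold change 0.93 ± 0.13 SE; edgeR adjusted p = 0.015).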

How the data were processed

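Polyadenylated RNA of 14 libraries of isolated mouse colon epithelium was sequenced by the study. Per the labels and the study's methods, the authors aligned reads to mm9 with HISAT2, counted them per gene with featureCounts, and deposited whole-number counts that are not normalized (37680 genes). Nothing says how animals relate to replicates beyond their numbers, so p-values measure the spread between these libraries. The members and lists were chosen with earlier results of these data known.

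From the deposited counts, the 15127 genes that reached 10 counts in 3 or more libraries went into edgeR 4.0.16 (TMM, quasi-likelihood test, 1 model of 4 groups, R 4.3.3), with Benjamini-Hochberg adjustment over all genes and a threshold of 0.05. On data simulated for KO against WT on water over 15127 genes, 61 of 100 genes changed by a fold of 2 and 85 of 100 by a fold of 4 were recovered, with 3 false calls. The changed genes were drawn from those with a mean of 10 or more counts per library. Detected chains such as Col14a1 (64 counts over all libraries) and Col4a3 (119) lie below that mean, so the recovery does not apply to them. No 2 libraries held identical counts. Alternatives were DESeq2 1.42.0, other normalizations and filters, fits of only the groups compared, blocks of replicate number or name prefix, and each library left out. DESeq2 on 2 groups and the DSS libraries of 1 prefix were added after seeing the data. An adjusted p that DESeq2 left blank stayed blank. Gene names and mm9 positions were read from the GENCODE M1 annotation, where 37310 IDs were found. Chains given library by library were those called in edgeR with all libraries or with the groups compared alone, the 8 with the highest level per exon length, and Col1a1, Col1a2, Col3a1 and Col6a1, 13 in all. The other chains are given by range. Mia3 was not matched and is not used here, and 1 result of the hemidesmosome list is not reported here.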

Additional observations from a re-analysis of the deposited data

Results flagged for a closer look

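For 3 chains, 1 library of a group of 4 lay far from the other 3, with a gap, as a share of the group's range, beyond Dixon's critical value for 95% confidence, which chance alone passes in about 1 group in 20. The Col1a1 level in WT on water had a gap of 0.931 for replicate 4, which had 12 counts beside 2, 2 and 0. The Col4a1 level in WT on water had a gap of 0.833 for replicate 2, at 4.12 CPM beside 2.77 to 2.99 CPM (93 counts beside 78, 34 and 28). The Col11a2 level in KO on water had a gap of 0.838 for replicate 4, with 140 counts beside 40, 11 and 40.

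Of the chains left out of the tests for low counts, 7 reached 10 counts in at least 1 library and were higher there than in any WT water library. In KO water replicate 4, Col27a1 had 35 counts, Col5a1 26, Col5a2 16, Col6a3 13, Col5a3 12 and Col6a4 12. Col25a1 had 12 counts in WT DSS replicate 1 and in KO DSS replicate 1. For 6 of these 7 the signal was highest in the 1 library that was also highest for Dcn and Msln, and it was not tested.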

How the results depend on the processing

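On water, 4 chains were called. Fits of the 8 water libraries alone called 0, also without the library labelled KO replicate 1, and leaving out 1 library at a time gave 0 to 6. DESeq2 on the 8 water libraries called 2 (Col8a1 higher and Col20a1 lower), beside 5.08% of all genes. It left Col1a1, Col1a2, Col3a1, Col6a1 and Col6a2 without an adjusted p. After DSS, where 0 chains were called for KO against WT, DESeq2 called 2, the 6 DSS libraries alone 3 in edgeR and 4 in DESeq2, and the DSS libraries of 1 prefix 1; leaving out 1 library gave 0 in each of the 4 comparisons other than the water contrast. For WT after DSS against water DESeq2 on 2 groups called 2. The replicate numbers mostly did not pair the libraries (19 pairs with the same number, 2 with a correlation of deviations over 0.1). The higher of these 2, 0.448, was between WT water replicate 4 and KO water replicate 4, which also share a name prefix. The replicate block raised the chains called on water from 4 to 7 while all genes called went from 1276 to 2977. The prefix block also called 4 on water, while all genes called went from 1276 to 2018. With that block Col8a1 lost its call (edgeR adjusted p = 0.072) and Col20a1 was called lower (0.013). The cause of these changes was not tested.

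The sign turned for 4 of the chains described by library, Col4a1, Col4a2 and Col28a1 on water and Col8a1 after DSS. For KO against WT on water, Col4a1 went to -0.010 with the replicate block and -0.28 with the prefix block, and Col28a1 to -0.10 with the prefix block. Col8a1 after DSS went to -0.20 with the prefix block and -0.19 within 1 prefix. Leaving out 1 library, the log2 fold change on water ran from -0.25 to 0.44 for Col4a1, -0.76 to 0.10 for Col4a2 and -0.15 to 0.30 for Col28a1, and after DSS from -0.21 to 0.55 for Col8a1. The number of chains detected stayed within 1.5 times of 19 under the other thresholds and was 18 to 19 with 1 library left out. Summed levels stayed within 1 SD, except KO after DSS without TMM, 47.7 CPM. With 1 library left out they were 46.2 to 55.4 CPM in WT and 52.4 to 62.0 CPM in KO on water, and 34.1 to 36.1 and 43.5 to 45.8 CPM after DSS. Depth limits the 25 undetected chains, whose counts cannot show a difference.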
